A study of Mus musculus with 8 samples.

Results

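The 42 genes described here encode the proteins that copy DNA and that drive cells into and through mitosis. They were chosen by name, and the ATAC-seq peaks assigned to each were those overlapping its gene body or the 10 kb on either side, on mm10 (GRCm38). All 42 symbols matched the RefSeq gene table, among 21887 protein-coding genes, and their windows held 274 of the 180321 regions obtained by merging the peak lists. By function there were 12 licensing genes, 8 genes of origin firing and elongation, 3 genes of nucleotide supply, 8 genes of G1/S control and 11 mitosis genes. The libraries were made from C57BL/6 mouse DN3 thymocytes, immature double-negative T-cell precursors at the stage where the T-cell receptor beta chain is tested. The mutant group, with 2 libraries, was homozygous for mutations at GATA sites 1 and 2 of N-Me, a Notch-responsive enhancer that lies far downstream of the Myc gene. The wild-type group, also with 2 libraries, carried unmutated N-Me. The 4 T-cell leukaemia samples of the series were not analysed here. Age is not given in the sources used here, nor whether each library came from a separate animal, so differences between libraries may be technical.

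Replication starts at origins that are licensed in G1, when the origin recognition complex, Cdc6 and Cdt1 load the MCM helicase, while geminin holds Cdt1 back after S phase has begun. Cyclin E with Cdk2 inactivates the retinoblastoma protein and frees E2F factors, which switch on genes for replication proteins and nucleotide synthesis. Later in the cycle, genes for mitotic cyclins and kinases are switched on, many through a promoter element called the cell cycle homology region (CHR) and through CCAAT boxes bound by NF-Y. Thymocytes at the DN3 stage begin to proliferate strongly once the pre-T-cell receptor signals, and Myc is one of the factors this growth depends on.

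The start-site sequences of these genes carried the words by which E2F-driven and mitotic promoters are known. RefSeq promoters (GRCm38.p6, 250 bases before to 50 after a start) were listed for 33 of the 42 genes, with 37 starts, and were compared with 21263 promoters of protein-coding genes. These letters are the reference genome's and are the same for both genotypes. Subunits of the MCM helicase had the most E2F words, 3 in Mcm6 and 2 each in Mcm3, Mcm5 and the second listed start of Mcm7. Mcm6 was taken for its 3 words. Mcm3 and Mcm5 were taken over Mcm7 because the median fold rank of their start peaks over the lists was higher. The promoters of Mcm6, Mcm3 and Mcm5 are shown with the E2F words in capitals. They lie at chr1:128359656-128359955 on the minus strand for Mcm6, chr1:20820263-20820562 on the minus strand for Mcm3 and chr8:75109259-75109558 on the plus strand for Mcm5.
Mcm6: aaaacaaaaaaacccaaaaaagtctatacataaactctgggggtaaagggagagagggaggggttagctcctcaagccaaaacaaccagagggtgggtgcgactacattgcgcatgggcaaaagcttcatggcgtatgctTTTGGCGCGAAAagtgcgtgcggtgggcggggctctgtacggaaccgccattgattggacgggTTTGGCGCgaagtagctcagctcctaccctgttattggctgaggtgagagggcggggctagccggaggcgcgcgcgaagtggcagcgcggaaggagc
Mcm3: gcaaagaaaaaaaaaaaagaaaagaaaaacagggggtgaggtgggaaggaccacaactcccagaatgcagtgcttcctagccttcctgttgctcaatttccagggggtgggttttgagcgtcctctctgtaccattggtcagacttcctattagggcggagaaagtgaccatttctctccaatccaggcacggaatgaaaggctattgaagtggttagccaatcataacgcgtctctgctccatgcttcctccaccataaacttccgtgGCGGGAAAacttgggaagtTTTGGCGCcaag
Mcm5: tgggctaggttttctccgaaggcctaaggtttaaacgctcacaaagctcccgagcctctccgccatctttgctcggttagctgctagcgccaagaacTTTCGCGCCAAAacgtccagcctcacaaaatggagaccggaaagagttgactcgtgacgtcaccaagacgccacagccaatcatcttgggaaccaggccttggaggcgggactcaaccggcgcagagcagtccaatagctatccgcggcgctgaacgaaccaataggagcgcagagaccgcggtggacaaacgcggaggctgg

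The E2F words searched were TTTGGCGC, TTTCCCGC, TTTCGCGC and TTTGCCGC, on both strands. At least 1 of them stood in 14 of the 37 promoters (37.8%), against 2.85% of all promoters and 3.73% of promoters of genes with a start peak in all 4 lists. In Mcm6 and Mcm5 a word on each strand overlapped by 4 bases to form a run of 12 letters. By role, the words stood in 7 of 12 licensing promoters and 4 of 8 G1/S promoters. They stood in 2 of 5 firing and elongation promoters, 1 of 9 mitosis promoters and 0 of 3 nucleotide-supply promoters. The CpG count differed between these sets too, with a median of 24 CpG per promoter in the 37, 13 in all promoters and 19 where a start peak was called in all lists, and its part in the share was not tested.

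Mitosis promoters stood apart by the CHR word, while CCAAT was common in the other roles too. The CHR word TTTGAA stood in 7 of 9 mitosis promoters, against 1 of 12 licensing, 1 of 5 firing and elongation, 2 of 8 G1/S and 0 of 3 nucleotide-supply promoters. Over the 37 promoters the share was 29.7%, against 16.0% of all promoters. The pentamer CCAAT stood in 30 of the 37 (81.1%), against 38.2% of all promoters. By role it stood in 9 of 9 mitosis, 10 of 12 licensing and 4 of 5 firing and elongation promoters. It also stood in 5 of 8 G1/S and 2 of 3 nucleotide-supply promoters. It occurred at 2 or more places in 19 promoters (51.4%), against 12.8% of all promoters. The CHR word and CCAAT stood together in 11 promoters (29.7%, against 6.38%), 7 of them mitotic. The E-box CACGTG, a word that MYC proteins bind, stood in 2 promoters (5.41%), those of Tyms and E2f3, against 7.84% of all promoters. Among all matches, an E2F word and a CCAAT shared 1 base in the promoter of Mcm7. The CCAAT boxes of the Mcm promoters above and the E2F word of the Cdk1 promoter below are left in small letters. Among mitosis genes with both words, those with the highest median fold rank of the start peak over the lists were taken. Their promoters are shown with CHR and CCAAT, or its reverse ATTGG, in capitals. They lie on the minus strand at chr9:70421505-70421804 for Ccnb2, which encodes cyclin B2, chr2:172370521-172370820 for Aurka, the spindle-pole kinase Aurora A, and chr10:69352863-69353162 for Cdk1, the kinase that starts mitosis.
Ccnb2: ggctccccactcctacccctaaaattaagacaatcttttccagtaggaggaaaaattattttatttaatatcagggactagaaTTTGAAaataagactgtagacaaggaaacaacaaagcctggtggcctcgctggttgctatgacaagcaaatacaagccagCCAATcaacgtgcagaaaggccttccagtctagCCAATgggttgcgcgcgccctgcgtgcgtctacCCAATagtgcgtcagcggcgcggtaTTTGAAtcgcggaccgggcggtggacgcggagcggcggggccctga
Aurka: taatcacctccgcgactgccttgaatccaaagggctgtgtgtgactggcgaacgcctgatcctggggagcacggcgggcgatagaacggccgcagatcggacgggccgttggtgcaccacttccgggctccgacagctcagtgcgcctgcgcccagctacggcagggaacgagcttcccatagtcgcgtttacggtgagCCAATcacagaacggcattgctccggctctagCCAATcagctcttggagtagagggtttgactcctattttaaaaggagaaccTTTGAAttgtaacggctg
Cdk1: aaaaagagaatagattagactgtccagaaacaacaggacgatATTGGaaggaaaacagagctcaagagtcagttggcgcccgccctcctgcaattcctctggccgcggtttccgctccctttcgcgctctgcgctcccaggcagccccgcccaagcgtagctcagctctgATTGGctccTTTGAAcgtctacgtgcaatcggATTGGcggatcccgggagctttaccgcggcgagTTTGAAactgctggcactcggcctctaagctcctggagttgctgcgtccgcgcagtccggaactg

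**Figure D1:**
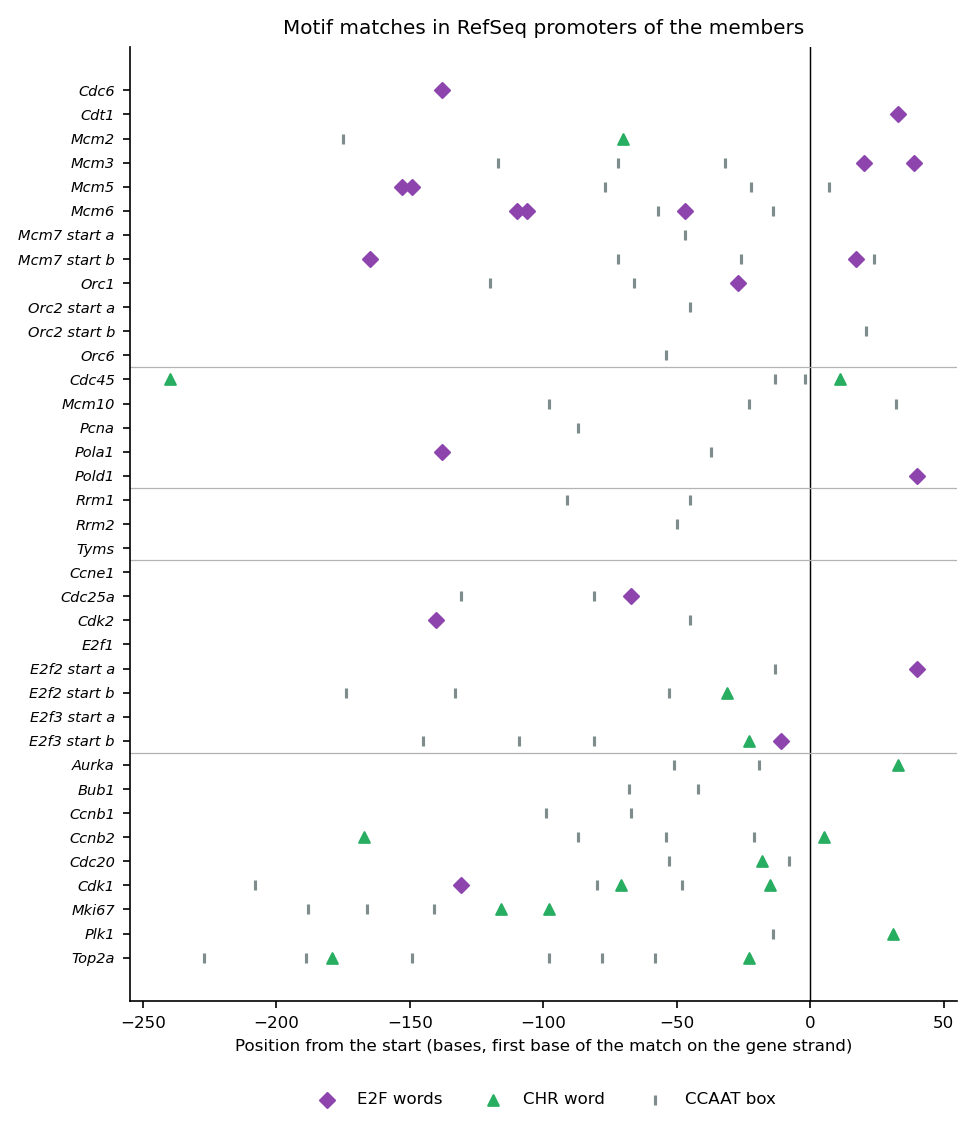
Positions of E2F words, the CHR word and CCAAT boxes in the RefSeq promoters (x axis, bases from the start; y axis, the 37 starts of 33 genes, grouped by role with lines between roles). E2F words gather in the upper, licensing rows (7 of 12 promoters) and CHR words in the lowest, mitosis rows (7 of 9 promoters).

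Nearly all of these words lay in accessible chromatin in both genotypes. Most bases of these promoters did too, so cover does not set the words apart, and no background share was taken. A peak covered 19 of 19 E2F matches, 15 of 16 CHR matches and 57 of 62 CCAAT matches in all 4 lists. The exceptions were the upstream CCAAT of Mcm2, which a peak covered in 1 list, the CCAAT at the first of 2 starts of Orc2, which no list covered, and 4 matches at the second start of E2f2. E2f2 encodes an activating E2F. At that start (chr4:136180782) the 300 promoter bases were covered by 0 and 0 bases of peak in the mutant lists, against 300 and 229 bases in the wild-type lists. The peak just before it ended 323 and 397 bp short of the start in the mutant lists, 57 bp past it in wild type 1 and 22 bp short of it in wild type 2. E2f2 was singled out after its values were seen. Of all promoters, 1.45% had peak cover in both wild-type lists and none in the mutant lists, and 0.169% showed the opposite. The peak was weak in every list, with a fold enrichment over local background of 2.66 and 2.73 in the mutant lists and 2.88 and 2.94 in the wild-type lists. Fold values are the authors' own, belong to their list and were not compared between genotypes.

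Every one of the 42 genes had a peak within 1 kb of its start in all 4 lists, against a background of 66.8% of all protein-coding genes (66.5% of those with a listed start and 68.1% of the others). For the 9 genes without a listed start, Mcm4, Gmnn, Gins1, Gins2, Pole, Rb1, Ccne2, Ccna2 and Aurkb, either annotated gene end stood in for it. A peak over the start itself was found in all lists for 41 of the 42, against 59.2% of all genes. The exception was Ccna2, the cyclin A2 gene, whose peak lay 492 bp from the nearer annotated end, and for which no start was listed. At E2f2 the highest-fold peak is the one described above, and the first start lay under a weaker peak in all 4 lists (fold 2.36 and 2.48 in mutant, 2.46 and 2.39 in wild type). Each highest-fold peak near a start is called the start peak below, and its fold was ranked among the start peaks of the same list. A peak's fold is an average over its length, so a long peak tends to a lower value.

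By that rank the genes sat slightly above the middle of the genome with all peaks used, and slightly below it, at a median of 49.0, with peaks of fold 4 or more. The median of the 42 genes was the 57.3rd and 53.4th percentile in the mutant lists and the 60.3rd and 60.1st in the wild-type lists. In 26 of the 42 the median over lists was above 50. Nucleotide-supply genes had the highest median, 76.2, followed by firing and elongation at 60.7, licensing at 59.99, mitosis at 55.01 and G1/S control at 32.3. The G1/S genes thus ranked lowest, and 6 of these 8 were below 50.

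The highest start peaks belonged to a mitotic cyclin and to licensing and initiation genes. Ccnb2 stood at the 85.65th and 87.95th percentile in mutant and at the 99.29th and 97.25th in wild type, with folds of 7.62 and 8.16 in mutant and 13.2 and 11.1 in wild type. Orc2, a subunit of the origin recognition complex, stood at the 89.4th and 92.2nd percentile in mutant and the 92.3rd and 95.3rd in wild type. Mcm10, which helps to activate the helicase, stood at the 88.5th and 67.7th percentile in mutant and the 92.9th and 94.2nd in wild type, so mutant 2 lay apart from the other lists. Mcm3 stood at the 87.2nd and 83.9th percentile in mutant and the 96.5th and 93.8th in wild type.

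The lowest start peaks belonged to E2f2, Aurkb, E2f3 and Rb1, while E2f1 ranked higher, at a median of 33.7. E2f2 stood at the 6.56th and 6.18th percentile in mutant and the 6.59th and 7.32nd in wild type. Rb1, the retinoblastoma gene that restrains E2F factors, stood at the 16.9th and 17.0th percentile in mutant and the 17.8th and 18.9th in wild type. Both were low in all 4 lists. E2f3, another activating E2F, stood at the 11.4th and 13.3rd percentile in mutant and the 36.5th and 16.8th in wild type, and wild type 1 had split its peak. Aurkb, which encodes the kinase of the chromosomal passenger complex, stood at the 8.68th and 8.63rd percentile in mutant and the 17.1st and 15.7th in wild type. Among the others, Ccna2 (cyclin A2) was high in every list, at 90.3 and 89.9 in mutant and 85.29 and 85.25 in wild type. Pcna, the sliding clamp of the replicative polymerases, stood at 76.7 and 73.3 in mutant and 77.4 and 79.7 in wild type. Rrm1, the large subunit of ribonucleotide reductase, stood at 68.1 and 71.9 in mutant and 91.3 and 92.1 in wild type.

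**Figure D2:**
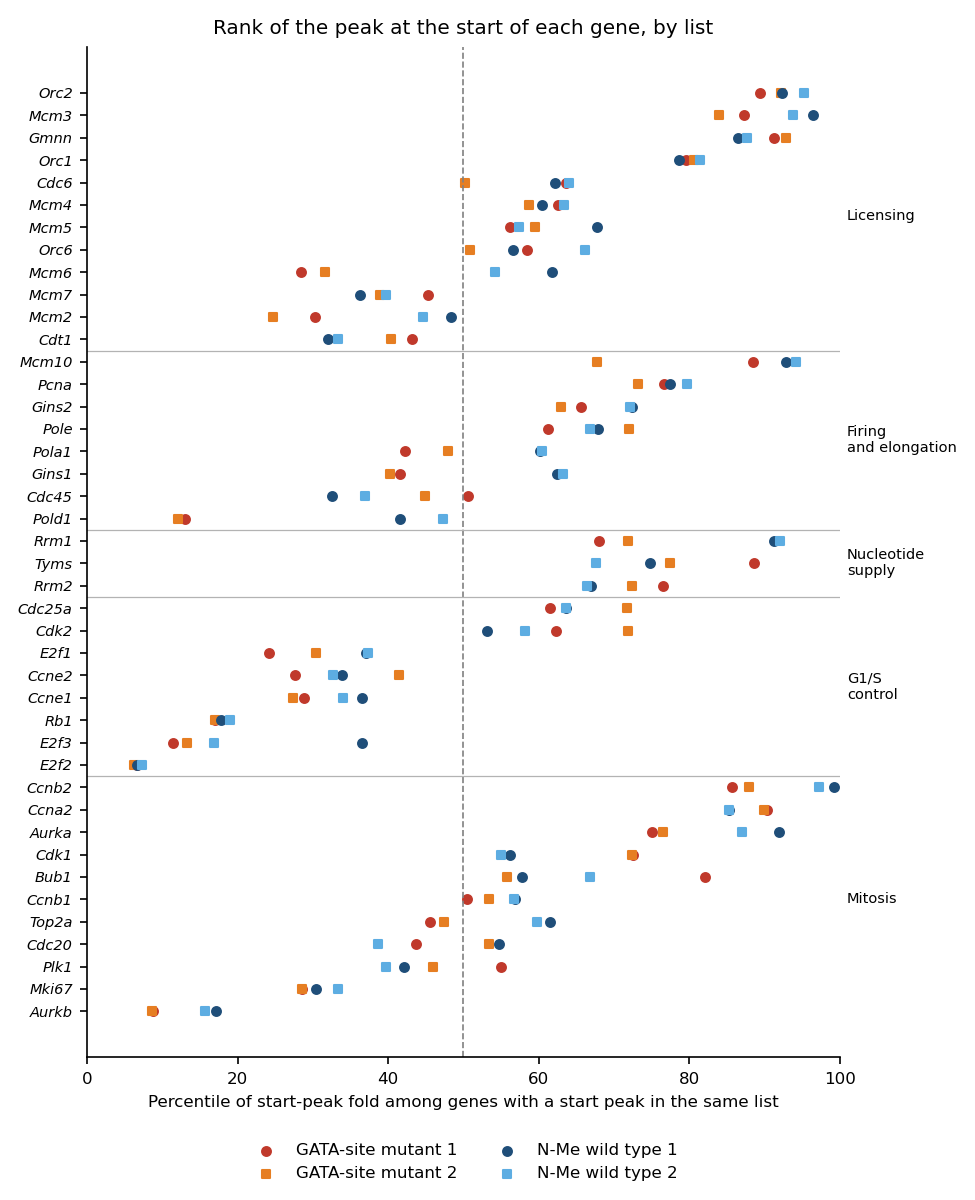
Percentile of each gene's start-peak fold within its own list (x axis; the dashed line is the 50th percentile) for the 42 genes by role (y axis), with 1 point per list. Ccnb2, Orc2, Mcm10 and Mcm3 have the highest medians (90.5 to 92.6) and E2f2, Aurkb, E2f3 and Rb1 the lowest (6.58 to 17.4).

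Start peaks differed in width. The widest medians over lists were those of E2f3 (2696.5 bp), Rb1 (2324.5 bp), Ccne2 (2056.5 bp), which encodes cyclin E2, and Mki67 (1929 bp), the gene of the proliferation antigen Ki-67. The narrowest were those of Mcm2 (648.5 bp), E2f2 (727 bp), Ccnb2 (772.5 bp) and Mcm3 (815 bp). Where start peaks covered a listed start, they reached a median of 699 and 611 bp upstream in the mutant lists, and 596 and 584.5 bp in the wild-type lists. Downstream they reached 744 and 718 bp in mutant and 582 and 671 bp in wild type. Over all protein-coding genes the upstream medians were shorter, 508 and 483 bp in mutant and 425 and 433 bp in wild type. The downstream medians over all genes were 703 and 683 bp in mutant and 617 and 624.5 bp in wild type, so the median of the genes described here was the shorter one in wild type 1 and the longer one in the other lists. Some of the genes share their promoter region with a neighbour: among genes with a listed start and strand, a start on the opposite strand lay within 1 kb of 4 of the 33 (12.1%, against 9.61% of genes). These neighbours were Ap4m1, 138 bp from Mcm7, Prpf38a, 118 bp from Orc1, Ufd1, 322 bp from Cdc45, and Cstf1, 433 bp from Aurka. Neighbours without a listed strand, such as Vps35, with an annotated end 115 bp from Orc6, are outside this count.

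Start peaks were wider in both mutant lists than in either wild-type list at 22 of the 42 genes (52.4%), and wider in both wild-type lists at 0 of them. Among the 14628 genes with a start peak in all lists these shares were 52% and 12.9%, so the mutant count was at the background. Ccnb2 peaks measured 908 and 862 bp in mutant and 648 and 683 bp in wild type, and Mcm3 peaks 997 and 955 bp in mutant and 622 and 675 bp in wild type. At both genes the groups did not overlap. The lists were not built alike: peaks had a minimum length of 73 and 87 bp in mutant and 64 and 65 bp in wild type, and were at least 293 and 349 bp apart in mutant and 257 and 261 bp apart in wild type. The smallest gap between neighbouring peaks was thus longer in the mutant lists. At Pold1, the catalytic subunit of DNA polymerase delta, the mutant lists held 1 peak of 2172 and 2074 bp over the start. The wild-type lists held 2 peaks there, of which the higher measured 714 and 699 bp. Mcm6 had the same layout, with 1 peak of 2132 and 1973 bp in mutant and 2 in wild type, the higher of 1024 and 1395 bp. With all lists joined over one gap and held to one minimum length, 22 genes were wider in both mutant lists and 0 in both wild-type lists, beside 48.0% and 14.6% of the 14600 genes with a start peak in all of these lists. Of the 22, 21 were the same genes as before joining, with Bub1 gained and Pold1 lost. In the joined lists the Pold1 peak measured 2172 and 2074 bp in mutant and 2094 and 699 bp in wild type. The Mcm6 peak measured 3055 and 1973 bp in mutant and 1024 and 1886 bp in wild type there.

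**Figure D3:**
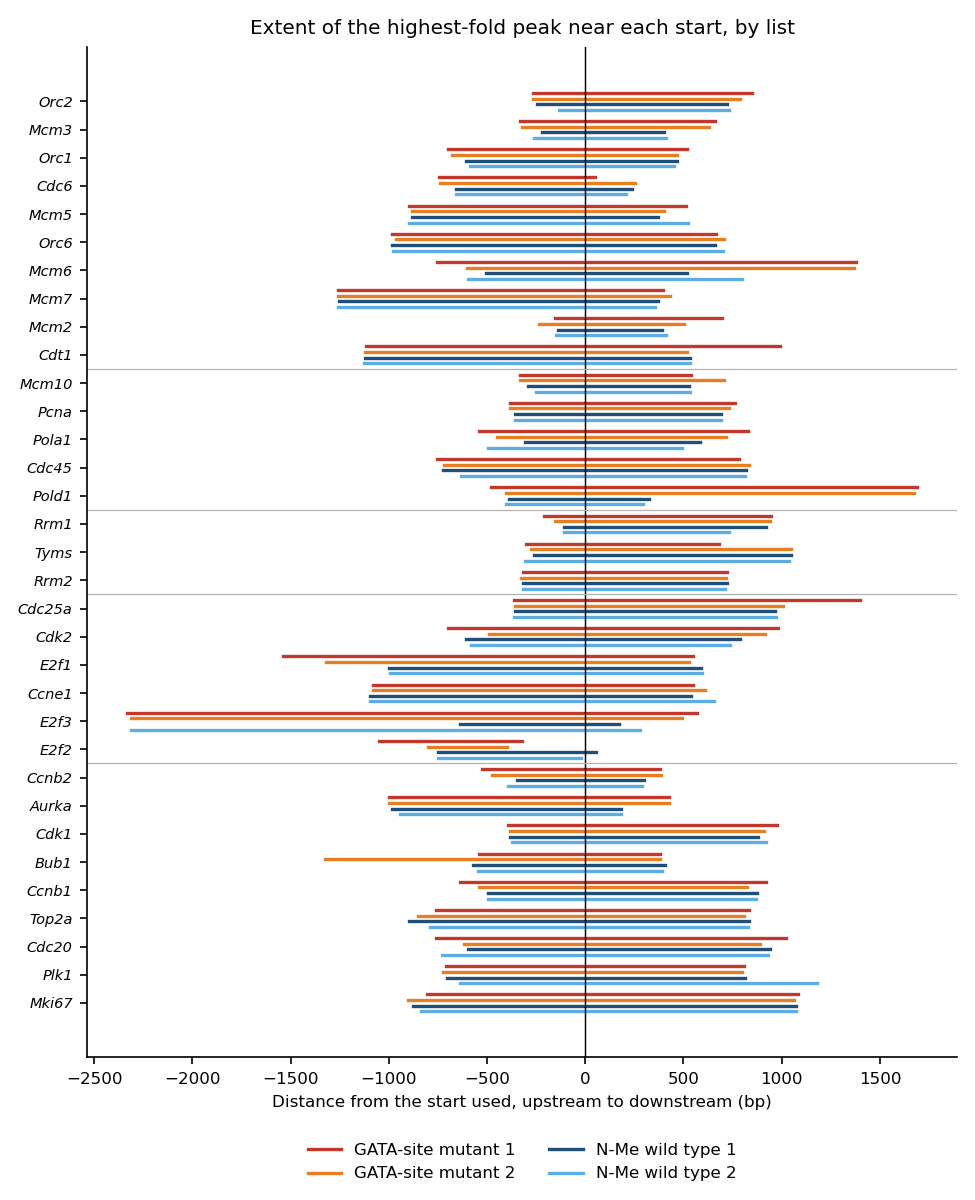
Extent of the start peak (x axis, bp from the start, upstream negative) for the 33 genes with a listed start (y axis, by role), with 1 line per list. Pold1 and Mcm6 show longer peaks in the mutant lists, and the E2f2 peak in those lists ends before the start.

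Of the 274 regions in the gene windows, 188 (68.6%) were called in all 4 lists, against 57.8% of regions in the windows of all protein-coding genes and 56.7% of all regions. Regions called in both mutant lists and no wild-type list numbered 2 (0.730%, background 1.01% of window regions and 1.04% of all regions). Regions called in both wild-type lists and no mutant list numbered 14 (5.11%, background 11% and 11.2%). The other 70 (25.5%, background 30.2%) were called in other combinations, 43 of them in a single list, namely 2 and 6 in the mutant lists and 23 and 12 in the wild-type lists. The windows held 209 and 212 peaks in the mutant lists and 264 and 249 in the wild-type lists, out of 121022 and 119023 peaks in mutant and 169255 and 156372 in wild type. The wild-type lists were thus longer throughout, while the total length covered was similar, 72.3 and 69.3 Mb in mutant and 72.1 and 70.8 Mb in wild type. Without mutant 1, 8 of 274 regions were called only in mutant and 25 only in wild type, and without mutant 2 these were 4 and 21 of 270. Without wild type 1 they were 3 and 26 of 252, and without wild type 2 they were 2 and 37 of 262. With the same number of peaks from each list, 9 of 234 regions were called only in mutant and 3 only in wild type, which turns the order round. Shares over all regions were not taken for these settings, so whether the changes are particular to these genes was not tested.

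No region called in both lists of one genotype and in neither of the other lay near a start. Within 1 kb of a member's own start, 44 of 46 regions were called in all 4 lists. The other 2 lay at annotated ends of Mcm4, called in wild type 2 only, and of Gins2, called in 3 lists. Within 1 kb of another gene's start, 29 of 33 regions were called in all lists and 0 in both lists of one genotype only. Of the other 4, those in the windows of Mcm6 and Rrm1 included 2 called in wild type 2 only. Over the genome, 85.6% of regions near starts were called in all lists, 0.205% only in mutant, 4.21% only in wild type and 9.96% in other combinations. In gene bodies, 58 of 102 regions were called in all lists, 1 only in mutant and 8 only in wild type. In the flanks, 57 of 93 were called in all lists, 1 only in mutant and 6 only in wild type. Beyond 1 kb of any start, the shares over all gene windows were 53.4% in all lists, 1.13% only in mutant, 12% only in wild type and 33.4% in other combinations.

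**Figure D4:**
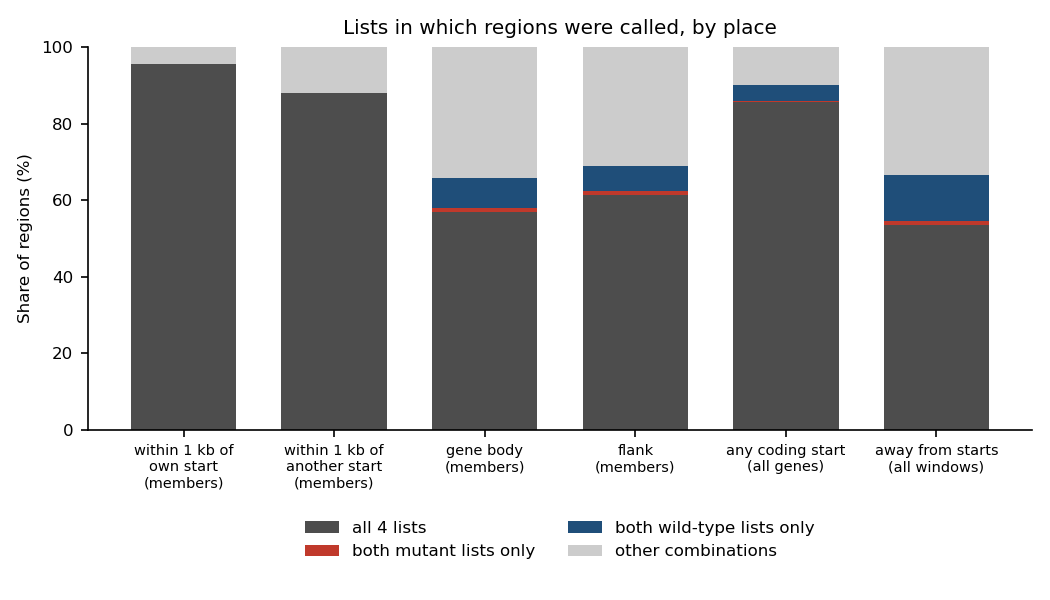
Share of regions (y axis, %) by the lists that called them, for 46, 33, 102 and 93 regions of the gene windows and, in the last 2 bars, for regions near any protein-coding start and for window regions away from starts. In the first 2 bars no region was called in both lists of one genotype only, and among the first 4 bars the share called in all lists is lowest in gene bodies (56.9%).

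The 2 regions called only in mutant were narrow and weak. One lay in the body of Pola1, the catalytic subunit of DNA polymerase alpha, at chrX:93373637-93373753 (117 bp, fold 2.305 and 3.1002 in the mutant lists), 23525 and 23483 bp from the nearest wild-type peak. The other lay in the flank of Tyms, thymidylate synthase, at chr5:30037735-30037956 (222 bp, fold 2.40 and 2.65 in the mutant lists). Whether exons or introns were involved was not annotated here.

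The 14 regions called only in wild type belonged to 12 genes of every role: Mcm7, Cdt1, Gmnn, Pola1, Rrm2, Rb1, E2f2, E2f3, Ccne2, Ccnb1, Cdk1 and Mki67. They were 69 to 462 bp wide, with a median of 143.5 bp, against 816.5 bp for regions called in all lists, and their folds were 1.37 to 3.87. The nearest mutant peak was 349 to 9646 bp away, and 8 of the 14 had one within 2 kb. Those of Rrm2 (81 bp), Ccne2 (69 bp) and Ccnb1 (70 bp) were narrower than the shortest peak of mutant 2, and 2 of them than the shortest of mutant 1. Rb1 held 3 in its body, at chr14:73234334-73234626 (fold 1.88 and 2.18 in wild type), chr14:73266331-73266417 (3.44 and 3.27) and chr14:73313509-73313658 (2.50 and 2.43). The strongest single value was in Pola1, at chrX:93624933-93625057, with fold 3.87 and 2.50 in the wild-type lists. In Mki67 the region at chr7:135705226-135705499 had fold 3.65 and 2.90 in the wild-type lists, and in E2f3 the widest, at chr13:29978524-29978985, had 1.91 and 1.88. At Ccne2 the region at chr4:11210281-11210349 had 3.40 and 3.65. The regions of Mcm7, Cdt1, Gmnn, Rrm2, E2f2, Ccnb1 and Cdk1 had folds of 1.37 to 3.13 in the wild-type lists.

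Windows differed widely in how many regions they held. Pola1 and Rb1 held 21 regions each, E2f3 held 16, and E2f2 and Mki67 held 13 each. Ccna2 held 1 region, its start peak, and Orc6, another origin recognition subunit, and Bub1, a spindle checkpoint kinase, held 2 each. Orc2, Gins1, Tyms, Ccne2 and Cdk1 held 3 each. Pola1 and Rb1 are long genes, so their windows are larger. Away from any start, 31 of 195 regions had a fold of 4 or more in all 4 lists, in the windows of 19 genes. A region 7016 bp from the start of Cdc6, the helicase-loading factor, at chr11:98900279-98901135, had fold 7.04 and 7.87 in mutant and 9.18 and 6.79 in wild type. A region 12087 bp from the start of Orc6, at chr8:85311719-85312031, had fold 5.382 and 7.004 in mutant and 11.84 and 10.995 in wild type. In the body of Rb1, chr14:73303256-73303691 had fold 6.42 and 6.55 in mutant and 6.26 and 6.04 in wild type. Within each list, the fold of that region was above that of the Rb1 start peak, whose fold was 3.48 and 3.62 in mutant and 3.96 and 3.96 in wild type.

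The length of each window covered by peaks did not overlap between genotypes at 18 of the 42 genes. It was higher in both mutant lists at 14 genes (33.3%), against 24.7% of all protein-coding genes and 32.4% of those with a start peak in all lists. The count was thus near the share of comparable genes. It was higher in both wild-type lists at 4 genes (9.52%), against 27.3% and 28.7%. With 2 libraries per genotype the exact two-sided permutation test of a single gene cannot give a p below 0.333, and no other test was run on these lengths. Summed over the 42 windows, 157.4 and 150.4 kb were covered in the mutant lists and 148.4 and 142.4 kb in the wild-type lists. The means were 154 ± 4.97 kb in mutant and 145 ± 4.25 kb in wild type (SD, n = 2 each).

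The genes covered over a greater length in mutant are listed next by role, in small counts whose spread over the roles was not tested. They made up 5 of 8 firing and elongation genes, 4 of 12 licensing genes and 4 of 11 mitosis genes. They also made up 1 of 8 G1/S genes and 0 of 3 nucleotide-supply genes. The share was 32.4% over all genes with a start peak in all lists. Pola1 differed most, with 9185 and 7313 bp covered in mutant and 5397 and 5505 bp in wild type. Pola1 is X-linked, and of 966 genes on X 25.1% were higher in mutant and 16.6% in wild type, against 25.0% and 28.1% of autosomal genes. Without Pola1 the sums nearly met, at 148.3 and 143.1 kb in mutant and 143.0 and 136.9 kb in wild type. Gins1, a subunit of the GINS part of the helicase, had 3386 and 3287 bp in mutant and 2463 and 2324 bp in wild type. Cdc45, which joins GINS and MCM in the active helicase, had 5068 and 5005 bp in mutant and 4195 and 4388 bp in wild type. Pcna had 3621 and 3380 bp in mutant and 2914 and 2860 bp in wild type, and Mcm10 had 2279 and 2221 bp in mutant and 1935 and 1560 bp in wild type. In these 5 genes both mutant libraries lay above both wild-type libraries.

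Among licensing genes, Mcm6 had 4807 and 4509 bp in mutant and 3690 and 3824 bp in wild type, and Mcm2 had 5669 and 5311 bp in mutant and 4858 and 5003 bp in wild type. Cdc6 (6621 and 6767 bp in mutant, 6125 and 6379 bp in wild type) and Orc6 (1966 and 1885 bp in mutant, 1789 and 1816 bp in wild type) differed by less. For Orc6 the groups were 69 bp apart. Among mitosis genes, Aurkb, Bub1, Ccnb1 (cyclin B1) and Mki67 were higher in mutant, with 7118 and 6929 bp at Aurkb in mutant and 6267 and 6303 bp in wild type. Ccne1 (cyclin E1) was the G1/S gene, with 3509 and 3172 bp in mutant and 2856 and 3034 bp in wild type. The 4 genes covered over a shorter length in mutant were Plk1 (1887 and 1932 bp in mutant, 2156 and 2184 bp in wild type), a mitotic kinase, Cdk1 (1448 and 1443 bp in mutant, 1494 and 1556 bp in wild type), Tyms and Ccnb2. Their groups were 18 to 224 bp apart.

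**Figure D5:**
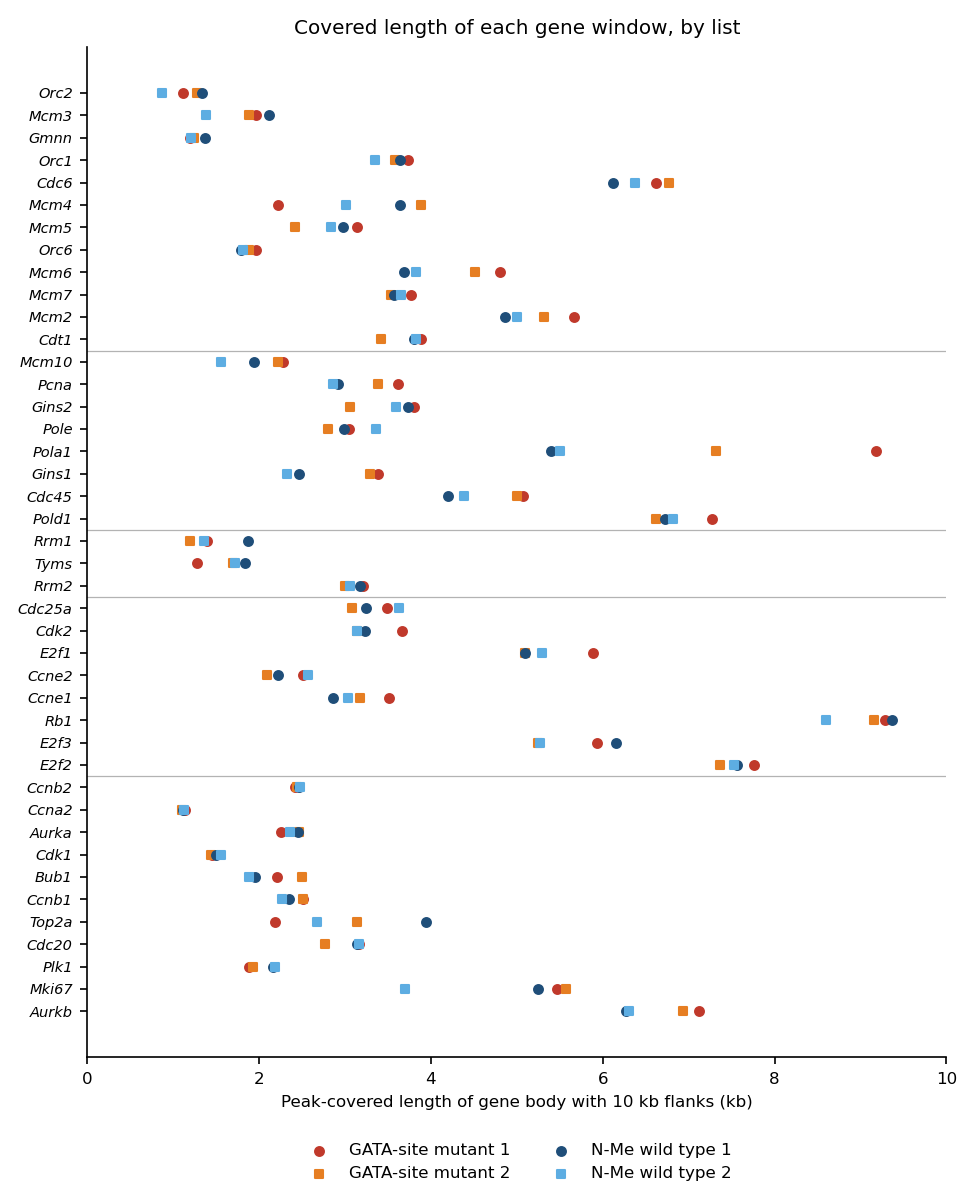
Length of each gene window covered by peaks (x axis, kb) in each list for the 42 genes by role (y axis), with 1 point per list. Pola1 shows the widest separation, 9185 and 7313 bp in mutant and 5397 and 5505 bp in wild type, and at 24 genes the genotypes overlap.

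These counts moved with the libraries used. Leaving out mutant 1 gave 16 genes higher in mutant and 20 higher in wild type, with backgrounds of 29.0% and 38.6%. Without mutant 2 they were 25 and 8 (36.9% and 31.9%), without wild type 1 they were 18 and 8 (34.5% and 32.6%), and without wild type 2 they were 14 and 11 (30.1% and 38.4%). With one joining gap and minimum length for all lists, 4 genes were higher in wild type (background 27.9%). At that setting 13 of the 14 genes higher in mutant stayed so (background 22.4%), and Cdc6 did not. The number of peaks went the other way: it was higher in both mutant lists at 1 gene, Tyms (2.38%, background 0.631%), and in both wild-type lists at 16 genes (38.1%, background 46.2%). Among genes with a start peak in all lists these backgrounds were 0.731% and 56.4%.

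Marker genes of the sample and of other cells moved in covered length as well. All 11 DN3 markers had a start peak in all 4 lists, against 66.8% of all protein-coding genes. Of the 11, 10 were covered over a greater length in both mutant lists, with Notch1 as the exception. That share was 24.7% of all genes and 32.4% of those with a start peak in all lists. Start peaks in all lists were found for 3 of 6 B-cell, 3 of 6 myeloid, 2 of 6 erythroid and 3 of 6 thymic stroma markers. No list held a start peak for Ms4a1 and Cd22 (B cell), Elane (myeloid), Gata1, Hba-a1, Hbb-b1 and Alas2 (erythroid), or Psmb11 and Krt5 (thymic stroma). Covered length was higher in both wild-type lists for 2 of 6 B-cell, 3 of 6 myeloid and 6 of 6 thymic stroma markers. It was higher in both mutant lists for 2 of 6 erythroid markers. Over all genes, 27.3% were higher in both wild-type lists and 24.7% in both mutant lists. Summed over its markers, the DN3 list covered 120.3 and 114.3 kb in mutant and 105.1 and 102.0 kb in wild type. The thymic stroma list covered 11.6 and 11.9 kb in mutant and 14.4 and 13.5 kb in wild type, and the B-cell list 23.7 and 21.4 kb in mutant and 26.2 and 25.0 kb in wild type. The myeloid list covered 18.2 and 17.2 kb in mutant and 21.2 and 19.5 kb in wild type, and the erythroid list 9.66 and 8.66 kb in mutant and 8.40 and 8.58 kb in wild type. The part of cell composition in the covered lengths of the 42 genes was not tested, and fewer cells of a type and less accessibility per cell cannot be told apart in bulk libraries.

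A further 78 genes of the same pathways resembled the 42 in part. All 78 had a start peak in all 4 lists, and the median rank of their start-peak fold was the 70.01st percentile, against 58.0 for the 42. The median was 73.8 for 35 replication genes, 41.9 for 19 control genes and 77.9 for 24 mitosis genes. Control genes thus ranked lowest here too, while mitosis genes ranked highest, against a median of 55.01 for those of the 42. Within the control genes, E2f4 stood at 22.8 and E2f5 at 98.4, with the other E2F genes between them. Rbl1 and Rbl2 stood at 41.2 and 64.8. Covered length was higher in both mutant lists at 29 of the 78 (37.2%) and in both wild-type lists at 13 (16.7%), against 32.4% and 28.7% of genes with a start peak in all lists. Higher in mutant and higher in wild type were 13 and 5 of the replication genes, 6 and 5 of the control genes and 10 and 3 of the mitosis genes. As examples chosen after their values were seen, Mcm8, a helicase related to the MCM subunits, had start-peak folds of 9.64 and 10.1 in mutant and 12.0 and 10.7 in wild type. Tk1, thymidine kinase, had low ones, 3.60 and 3.55 in mutant and 3.05 and 2.66 in wild type.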

How the data were processed

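ATAC-seq peak lists of 4 DN3 libraries were analysed, 2 per genotype. The genome build was mm10 (GRCm38), with MACS2 2.1.1, SAMtools 1.7, Bowtie2 2.3.3.1 and cutadapt 1.16 named as tools, per the submitters' processing notes. How they were set, and whether reads were filtered or shifted, is not given in the sources used here. Each deposited list comes from 1 library. In the deposited lists each peak has a score, a fold enrichment (a ratio of pileup to local background), and −log10 p and −log10 q values. Comparisons of these values stayed inside 1 list. With no read counts in the lists, depth is unknown, no count model was used and accessibility levels carry no interval.

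Regions were the union of the 4 lists, and a list had a region if a peak overlapped it by 1 bp or more. Genes, starts and promoters came from RefSeq tables of GRCm38.p6. A start peak is the highest-fold peak within 1 kb of a start. Covered length, peak number and start-peak width were called different when the 2 genotypes did not overlap. All 42 genes are accounted for, and those named with values are the extremes of region number, fold rank and peak width, genes with a region called in both lists of one genotype only, and examples of each role. The members and lists were chosen with earlier results of these data known. The code was tested on simulated lists. Python 3.11.15, numpy 2.4.6, pandas 2.3.3, scipy 1.17.1 and matplotlib 3.10.9 were used.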

Additional observations from a re-analysis of the deposited data

How the results depend on the processing

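Peak lists give no depth, so a missing peak means only that none was called in that library. The start peak was called in all lists for 42 genes under every setting tried, except with peaks of fold 4 or more (36 genes) and with a peak over the start itself (41). With −log10 q of 5 or more, 6 of 200 regions were called only in mutant and 7 only in wild type. At that setting 22 genes were covered over a greater length in mutant (background 30.6%) and 3 in wild type (17.7%). With fold of 4 or more, 118 regions remained, 1 called only in mutant, 5 only in wild type and 90 in all lists. There 18 genes were covered more in mutant (background 23.1%) and 7 in wild type (24.6%), and the median percentile was 49.0. With equal numbers of peaks, 9 of 234 regions were called only in mutant and 3 only in wild type. Here 23 genes were covered more in mutant (background 39.3%) and 2 in wild type (14.2%). With no flank, 1 of 148 regions was called only in mutant, 8 only in wild type and 104 in all lists. With 50 kb flanks these were 8, 72 and 509 of 809 regions. There 10 genes were covered more in wild type (background 32.1%) and 13 in mutant (23.3%). Keeping regions nearest to the gene itself left 172, with 0 only in mutant, 10 only in wild type and 123 in all lists. Asking for 50% cover gave 12 of 274 only in mutant, 15 only in wild type and 155 in all lists. Leaving out 1 library at a time gave 2 to 8 regions called only in mutant and 21 to 37 only in wild type, 189 to 199 called in all lists, 14 to 25 genes covered more in mutant and 8 to 20 covered more in wild type. The number of regions changed with the setting, and shares over all regions of the genome were not taken for these settings. The cause of these changes was not tested. The labels do not say whether same-numbered libraries were handled as pairs. The correlation of deviations between same-numbered libraries was −0.0655 over 17699 genes, and with 2 libraries per genotype it cannot decide this. With the replicate block 15 genes were covered more in mutant (background 29.2%) and 6 in wild type (31.7%). The joined-list widths and the sum without Pola1 were added after the data were seen.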
